A study of Mus musculus with 40 samples.

Results

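The Cajal-Retzius cell genes examined here are 10 genes whose RNA marks the earliest neurons of the cortical surface: Reln, Trp73, Lhx1, Lhx5, Calb2, Ebf2, Ebf3, Ndnf, Nhlh2 and Car10. They were found by matching the NCBI gene IDs of the deposited tables to these symbols. All 10 stand among the 17940 genes listed at embryonic stage E14.5, a time of cortical neurogenesis, and the 15449 listed at E18.5, shortly before birth, and all 10 passed the authors' filter on low means at both stages, being among the 13417 and 13601 genes with an adjusted p. The study sequenced polyadenylated RNA from the forebrain of male mouse embryos, with 5 wild-type (WT) and 5 Chd8 KI libraries at each stage. KI is the labels' name for mice that, per the title of the series, carry a duplication of Chd8, a gene for an ATP-dependent chromatin remodeler. The labels do not say where the added copy sits, what drives it, the strain, or how the embryos of a group were spread over litters; the p-values then measure only the spread between these libraries, which may be technical.

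Cajal-Retzius cells are born early at the borders of the cortex, among them the cortical hem, the septum and the ventral pallium, and spread beneath the meninges into the marginal zone. There they secrete Reelin, which acts through receptors on migrating neurons and orders the cortical layers. Most die soon after birth, and in rodents they have been defined by combinations of markers rather than by one gene. None of the 10 genes is limited to them in the forebrain: Reln, Calb2 and Ndnf are also used by GABAergic interneurons, and Lhx1, Lhx5 and Ebf genes by neurons outside the cortex. In whole forebrain RNA, fewer cells of a type and less RNA per cell cannot be told apart.

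The deposited tables hold 1 mean normalized count per gene and stage, averaged by the authors over both genotypes, and no values per library. Levels are therefore given as that mean, followed by WT and KI means derived from it and the log2 fold change by taking the mean as an equal average of both genotypes. Chd8 itself was 6900 at E14.5 and 6202 at E18.5 in mean normalized count by the authors' deposited table, and its log2 fold changes of 0.64 and 0.51 gave the sign, since an added copy must raise it. The dorsal forebrain homeobox gene Emx1 was at 1281 and 520 in mean normalized count at E14.5 and E18.5 by the authors' deposited table. Of 6 hindbrain and midbrain genes, 5 were not listed at E14.5 and En2 was at 1.261 by the authors' deposited table, and none was listed at E18.5. At E18.5, 85 of the 15449 genes had no p at all, against 3 of 17940 at E14.5; DESeq2 withholds the p of a gene in which a library lies far from the rest. None of the 10 Cajal-Retzius genes was among them, but 6 of 8 meningeal genes and 4 of 6 choroid plexus genes were. So were the mitral cell gene Cdhr1 and the hem signal Bmp4, named after their values were seen. At least 1 library of E18.5 thus stood apart in such genes. The tables do not show which, and no value could be given without it. All 10 Cajal-Retzius markers were detected, with the transcription factors between 41.1 and 797 in mean normalized count by the authors' deposited table. Since none of the 10 is limited to Cajal-Retzius cells, their detection cannot show that the RNA came from these cells.

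RefSeq promoter windows in GRCm38.p6, the assembly of the authors' mm10 build, were at hand for 6 of the 10 genes, in 8 windows. The 250 bases before 4 of these starts are printed to show that Trp73 has 2 annotated starts, whose transcripts the gene counts add together, and how far apart the promoters are in CpG content. Each is written 5′ to 3′ on the gene's strand, with every CpG in capitals.
Trp73 upstream start, chr4:154139876-154140125, minus strand: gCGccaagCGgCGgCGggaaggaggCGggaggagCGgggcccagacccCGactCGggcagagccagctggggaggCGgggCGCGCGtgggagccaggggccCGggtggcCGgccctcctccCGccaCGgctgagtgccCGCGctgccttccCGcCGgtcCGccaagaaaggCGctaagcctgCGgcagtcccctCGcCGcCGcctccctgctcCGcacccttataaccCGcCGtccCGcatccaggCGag
Trp73 internal start, chr4:154097174-154097423, minus strand: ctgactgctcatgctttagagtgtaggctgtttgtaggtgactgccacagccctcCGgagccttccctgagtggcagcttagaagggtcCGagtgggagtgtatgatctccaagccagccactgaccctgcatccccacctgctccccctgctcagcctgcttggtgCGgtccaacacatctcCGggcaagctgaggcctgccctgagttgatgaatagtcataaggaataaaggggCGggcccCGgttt
Reln, chr5:22344706-22344955, minus strand: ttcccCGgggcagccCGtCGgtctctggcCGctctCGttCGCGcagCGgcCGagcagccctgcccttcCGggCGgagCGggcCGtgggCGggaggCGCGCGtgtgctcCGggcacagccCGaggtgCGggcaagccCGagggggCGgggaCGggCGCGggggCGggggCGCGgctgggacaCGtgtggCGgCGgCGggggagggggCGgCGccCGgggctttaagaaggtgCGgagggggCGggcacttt
Nhlh2, chr3:102009895-102010144, plus strand: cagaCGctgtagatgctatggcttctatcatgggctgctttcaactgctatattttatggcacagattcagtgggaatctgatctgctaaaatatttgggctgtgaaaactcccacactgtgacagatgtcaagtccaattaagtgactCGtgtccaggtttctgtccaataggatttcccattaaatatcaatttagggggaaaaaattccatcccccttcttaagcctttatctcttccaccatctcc

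The upstream Trp73 window held 31 CpG and the internal one 6, beside a median of 6 over the 32851 windows of the table. In Trp73 the upstream start gives the full-length protein and the internal start the form that lacks the transactivation domain, the form best known from Cajal-Retzius cells, so the gene's value below cannot speak for either form. The Reln window held 37 CpG at 80.0% GC, and the Nhlh2 window 2 CpG at 42.0% GC. The Nhlh2 window runs to 102010144, past the first annotated base of the gene at 102010111, so the start used lies inside the annotated gene. Car10, like Trp73, had windows at separate starts. The windows of Ebf3, Lhx1 and Car10 lay between 13 and 43 CpG, so that 6 of the 8 windows were above the median. No chromatin data were analysed here, so these windows are a description of the genes.

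The comparison of KI with WT asked whether the genes of these cells differ in forebrain with a duplicated Chd8. At E14.5, 1 of the 10 was called changed at an adjusted p under 0.05 over all genes tested, namely Ndnf, which fell, and none rose. Over all genes 1.21% were called, 0.47% as lower and 0.738% as higher in KI. Of the 10, 5 lay below 0 and 5 above, with a median log2 fold change of −0.01, beside 50.2% of all genes below 0 and a median of 0.00. At an unadjusted p under 0.05, 2 of the 10 passed (Lhx1 higher, Ndnf lower), against 11.5% of all genes. At E18.5 none of the 10 was called by the authors' DESeq2 test, where 0.0662% of all genes were. There 3 of the 10 had an unadjusted p under 0.05 (Ebf2 and Car10 higher, Ndnf lower), against 5.96% of all genes, and the median of the 10 was 0.06 with 5 below 0, where 51.2% of all genes lay below 0. Restricted to the 8 members whose mean normalized count reached 100, that median was −0.02.

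**Figure D1:**
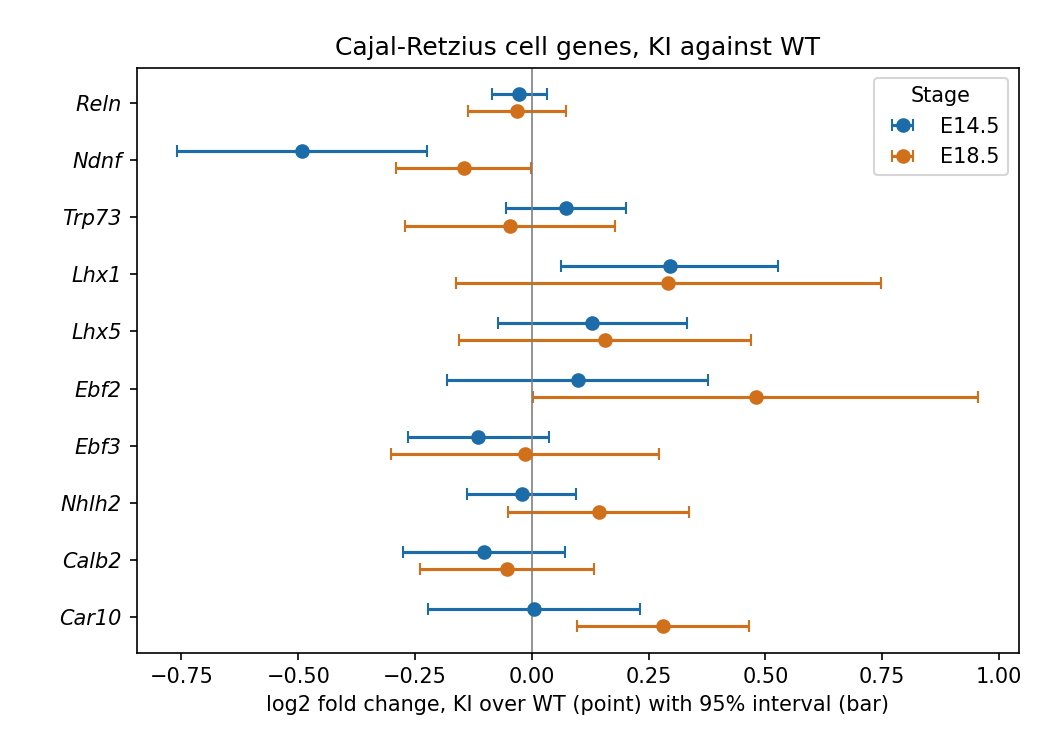
Log2 fold change of KI over WT for each of the 10 genes on the x axis, with 1 row per gene; points are the authors' estimates and bars their 95% intervals, blue for E14.5 and orange for E18.5. Ndnf at E14.5 lies wholly below 0 (−0.76 to −0.23) and is the only gene called; Lhx1 at E14.5 and Ebf2, Car10 and Ndnf at E18.5 have intervals that miss 0 without passing over all genes.

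Ndnf (chromosome 6, 65671611 to 65712323, GRCm38) encodes a secreted glycoprotein with fibronectin type III domains that is made by Cajal-Retzius cells and, later, by neurogliaform interneurons of layer 1. By the authors' deposited table its mean normalized count was 119 at E14.5, from which a WT mean of 140 and a KI mean of 99.1 follow. Its log2 fold change at E14.5 by the authors' deposited table was −0.49 (SE 0.136, DESeq2 adjusted p = 0.0315), a change of −28.9% with a 95% interval from −41.0% to −14.46%. Among the 63 genes called lower at E14.5 it ranked 5 from the lowest log2 fold change, and its p ranked 129 of the 13417 tested. The call was lost with the Benjamini-Yekutieli adjustment (adjusted p = 0.318), with an empirical null (adjusted p = 0.308) and with a t distribution of 8 degrees of freedom (adjusted p = 0.656), over alternatives that ranged from 0.0287 to 0.656.

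At E18.5 the same gene stood at a mean normalized count of 490 by the authors' deposited table, with derived means of 515 in WT and 465 in KI. The authors' deposited table gives −0.15 (SE 0.074, DESeq2 adjusted p = 0.827), on the same side of 0 but not called. The difference between the stages (E18.5 less E14.5) was 0.35 (SE 0.155; interval 0.04 to 0.65 at 95%), with an unadjusted p of 0.0254 and an adjusted p of 0.999 over the 13106 genes tested at both stages, so that a smaller effect at E18.5 was not shown. Ndnf overlaps no other annotated gene, and none of the 5 tested genes within 1 Mb was called at E14.5.

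Layer 1 interneurons, the other forebrain source of Ndnf, are part of a lineage whose markers were also measured. At E14.5, 14 of the 17 interneuron genes were above 0 (median 0.07) and 3 below, and 1 was called, where 1.21% of all genes were. This was Dlx1, a ventral forebrain homeobox gene, which rose at 0.17 (SE 0.047, DESeq2 adjusted p = 0.0369) by the authors' deposited table. Like that of Ndnf, the Dlx1 call was lost with the Benjamini-Yekutieli adjustment (adjusted p = 0.372), the empirical null (0.333) and the t distribution (0.656). At an unadjusted p under 0.05, 7 of the 17 passed, 5 higher and 2 lower, against 11.5% of all genes. Named after their values were seen, the 2 lower ones were the peptide genes Npy, which neurogliaform cells also use, at −0.23 (SE 0.102, DESeq2 adjusted p = 0.321), and Sst at −0.12 (SE 0.061, DESeq2 adjusted p = 0.424), by the authors' deposited table. The GABA-synthesis genes Gad1 and Gad2 stood at 0.08 and 0.08 at E14.5 (SE 0.065 and 0.057) by the authors' deposited table. At E18.5 the split was again 14 above and 3 below (median 0.09), with none called.

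Among 9 genes of the main forebrain fields, 6 lay below 0 and 3 above at E14.5 (median −0.03), beside 50.2% of all genes below 0. Of the 9, 1 was called, where 1.21% of all genes were. This was Neurod6, a transcription factor of cortical excitatory neurons, which fell. Its log2 fold change by the authors' deposited table was −0.20 (SE 0.046, DESeq2 adjusted p = 0.00438), and its mean normalized count was 10202. The call held with the Benjamini-Yekutieli adjustment (adjusted p = 0.0442) and was lost with the empirical null (0.104) and the t distribution (0.626). At E18.5 Neurod6 stood at −0.02 (SE 0.060) by the authors' deposited table. At an unadjusted p under 0.05, 4 of the 9 passed at E14.5, 2 higher and 2 lower, against 11.5% of all genes. The lower ones were Neurod6 and Tbr1. Named after their values were seen, the higher ones were Nkx2-1 at 0.43 (SE 0.157) and Dlx2 at 0.15 (SE 0.049) by the authors' deposited table. Both are also counted with the interneuron genes. An excitatory neuron gene was thus lower, as Ndnf was, and most interneuron genes lay above 0 in the same libraries, and the part of either in the value of Ndnf was not tested.

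Reln (chromosome 5, 21884454 to 22344705, GRCm38) encodes Reelin, the secreted glycoprotein for which these cells are best known. It was far the most abundant of the 10 in counts, at 9430 in mean normalized count at E14.5 and 11196 at E18.5 by the authors' deposited table, above 98.4% and 98.7% of the genes tested. Transcript length enters these counts, so the order of genes by count is not an order of transcripts. Derived means were 9517 in WT and 9343 in KI at E14.5, and 11319 and 11073 at E18.5. The log2 fold changes were −0.03 (SE 0.030, DESeq2 adjusted p = 0.809) and −0.03 (SE 0.054) by the authors' deposited table. The intervals ran from −5.79% to 2.29% at E14.5 and from −9.09% to 5.27% at E18.5, the narrowest of the 10 genes at both stages. Reln RNA is also made by interneurons and other neurons, and its count cannot be split by source.

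Reelin binds the lipoprotein receptors Vldlr and Lrp8 and acts through the adaptor Dab1 and kinases of the Src family. None of the 26 genes of this pathway was called at either stage. At E14.5, 22 of the 26 lay below 0, with a median of −0.02 and a range from −0.11 to 0.21, where 50.2% of all genes lay below 0. There 2 of the 26 had an unadjusted p under 0.05, against 11.5% of all genes. At E18.5, 17 lay below 0 with a median of −0.01, where 51.2% of all genes lay below 0. An unadjusted p under 0.05 was found for 1 of the 26, against 5.96% of all genes. Vldlr stood at −0.05 (SE 0.059) at E14.5, with 0.02 (SE 0.046) at E18.5, and Lrp8 at −0.01 (SE 0.033) and 0.00 (SE 0.041), by the authors' deposited table. Dab1, named after its values were seen, stood at −0.01 (SE 0.034) and −0.01 (SE 0.035) by the authors' deposited table. The ligand, both receptors and the adaptor thus each lay between −0.05 and 0.02 in log2 fold change at both stages.

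Trp73 (chromosome 4, 154056249 to 154139875, GRCm38) encodes p73, a relative of p53 that Cajal-Retzius cells need to survive. By the authors' deposited table its mean normalized count was 527 at E14.5 and 340 at E18.5. The derived means were 514 in WT and 541 in KI at E14.5, and 346 and 335 at E18.5. The authors' deposited table gives log2 fold changes of 0.07 (SE 0.066) at E14.5, with −0.05 (SE 0.115) at E18.5, neither called. Its paralog Trp53, the tumour suppressor, stood at 0.10 (SE 0.046, DESeq2 adjusted p = 0.375) at E14.5, with 0.03 (SE 0.052) at E18.5 by the authors' deposited table. Trp63, the epithelial paralog, was listed at a mean normalized count of 5.46 at E14.5, with no adjusted p, by the authors' deposited table, and was not listed at E18.5.

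The LIM-homeodomain genes Lhx1 (chromosome 11, 84517975 to 84525534, GRCm38) and Lhx5 (chromosome 5, 120431886 to 120441457, GRCm38) act early in these cells and in their sources at the borders of the cortex. Lhx1 had a mean normalized count of 125 at E14.5 by the authors' deposited table, with derived means of 112 in WT and 137 in KI. Its log2 fold change was 0.30 (SE 0.119, unadjusted p = 0.0128, DESeq2 adjusted p = 0.242) at E14.5, with 0.29 (SE 0.232) at E18.5 by the authors' deposited table. The interval at E18.5 ran from −10.6% to 67.8%, at a mean normalized count of 48.0 by the authors' deposited table, so that changes of either sign could not be distinguished there. Lhx5 was at 212 and 120 in mean normalized count, and at 0.13 (SE 0.103) and 0.16 (SE 0.159) in log2 fold change, by the authors' deposited table. Both genes thus lay above 0 at both stages without a call, and the stages share no library.

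Other LIM-homeodomain genes are known from other forebrain fields. Lhx6 and Lhx8, of the ventral forebrain, stood at 0.12 (SE 0.057) and 0.38 (SE 0.183) at E14.5 by the authors' deposited table. Lhx2, of cortical progenitors, stood at 0.06 (SE 0.042) and Lhx9, of thalamus and pallium, at −0.02 (SE 0.065), by the authors' deposited table. Lhx3 was listed at a mean normalized count of 1.67 at E14.5 by the authors' deposited table and not at E18.5, and Lhx4 at neither stage. Across all 14 paralogs of the 10 genes, 11 were tested at each stage and none was called; 8 of 11 lay above 0 at E14.5 (median 0.10) and 9 of 11 at E18.5 (median 0.03). At an unadjusted p under 0.05, 5 of the 11 passed at E14.5, all higher, against 11.5% of all genes. At E18.5, 2 of the 11 passed, against 5.96% of all genes. These counts are not independent of those of other lists. Lhx6 is also counted with the interneuron genes, Lhx9 with the diencephalic genes and Lhx2 with the hem and other sources. Ebf1 and Nhlh1 are also among the further genes linked to Cajal-Retzius cells.

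Lhx1 and Lhx5 are also genes of the diencephalon, whose markers were sparse. Of 15 diencephalic genes 5 were tested at each stage and none was called, with 3 of 5 above 0 at E14.5 (median 0.06) and 5 of 5 at E18.5 (median 0.27). Tcf7l2, a thalamic transcription factor, stood at 0.16 (SE 0.091) and 0.21 (SE 0.155), and Gbx2, another, at 0.38 (SE 0.158, DESeq2 adjusted p = 0.273) and 0.70 (SE 0.224, DESeq2 adjusted p = 0.347), by the authors' deposited table. The part of diencephalic tissue in the values of Lhx1 and Lhx5 was not tested.

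Ebf2 (chromosome 14, 67233292 to 67430952, GRCm38) and Ebf3 (chromosome 7, 137193671 to 137322805, GRCm38) encode helix-loop-helix factors of the early B-cell factor family that are switched on as Cajal-Retzius cells differentiate. Ebf2 was the least abundant member in counts, at 106 in mean normalized count at E14.5 and 41.1 at E18.5 by the authors' deposited table. The log2 fold change of Ebf2 was 0.10 (SE 0.143) at E14.5, with 0.48 (SE 0.243, unadjusted p = 0.0486, DESeq2 adjusted p = 0.833) at E18.5 by the authors' deposited table, the latter from derived means of 34.3 in WT and 47.9 in KI. Ebf3, at 418 and 181 in mean normalized count, stood at −0.11 (SE 0.077) and −0.01 (SE 0.147) by the authors' deposited table. The paralogs Ebf1, also a striatal gene, and Ebf4 stood at 0.12 (SE 0.089) and 0.24 (SE 0.085, DESeq2 adjusted p = 0.145) at E14.5, and at 0.06 (SE 0.090) and 0.00 (SE 0.106) at E18.5, by the authors' deposited table. Ebf3 lay below 0 and the other 3 family members above it at both stages, with none called. The annotation places 4 other genes over Ebf2 and 1 over Ebf3, as it does 3 over Reln, 2 over Car10 and 1 over Trp73. None of these is listed at E14.5, and whether the counting used strand is not given in the sources used here. Within 1 Mb of Ebf2, 1 of 14 tested genes was called at E14.5, Stmn4, which is named after its value was seen, and none was within that distance of the other 9 members.

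Nhlh2 (chromosome 3, 102010111 to 102015492, GRCm38) encodes a neuronal helix-loop-helix factor. Its mean normalized count was 797 at E14.5 and 350 at E18.5 by the authors' deposited table, with log2 fold changes of −0.02 (SE 0.059) and 0.14 (SE 0.099). Its close relative Nhlh1, a factor of newly born neurons, stood at 0.12 (SE 0.057, DESeq2 adjusted p = 0.357) at E14.5, with 0.01 (SE 0.166) at E18.5 by the authors' deposited table. The mean normalized count of Nhlh1 went from 941 to 73.5 by the authors' deposited table, and its coefficient of variation between libraries, derived from the SE, from 5.39% to 13.97%.

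Calb2 (chromosome 8, 110142526 to 110168212, GRCm38) encodes calretinin, a calcium-binding protein of Cajal-Retzius cells, of some interneurons and of thalamic neurons. It stood at 284 and 572 in mean normalized count and at −0.10 (SE 0.088) and −0.05 (SE 0.095) in log2 fold change, by the authors' deposited table. The paralog Calb1, calbindin, stood at −0.07 (SE 0.086) and 0.10 (SE 0.087) by the authors' deposited table. Neither was called.

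Car10 (chromosome 11, 93096805 to 93601751, GRCm38) encodes a secreted relative of the carbonic anhydrases that has lost catalytic activity and binds neurexins. At E14.5 it stood at a mean normalized count of 161 and a log2 fold change of 0.00 (SE 0.116) by the authors' deposited table. At E18.5 the mean normalized count was 353, with derived means of 319 in WT and 387 in KI. The log2 fold change at E18.5 was 0.28 (SE 0.094, unadjusted p = 0.00290, DESeq2 adjusted p = 0.429) by the authors' deposited table, its p ranking 92 of the 13601 tested. The difference between stages was 0.28 (SE 0.149, 95% interval −0.02 to 0.57, adjusted p = 0.999). The other catalytically inactive relatives, Car11 and Car8, stood at −0.18 (SE 0.085) and −0.20 (SE 0.150) at E18.5 by the authors' deposited table, on the other side of 0 and not called.

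**Figure D2:**
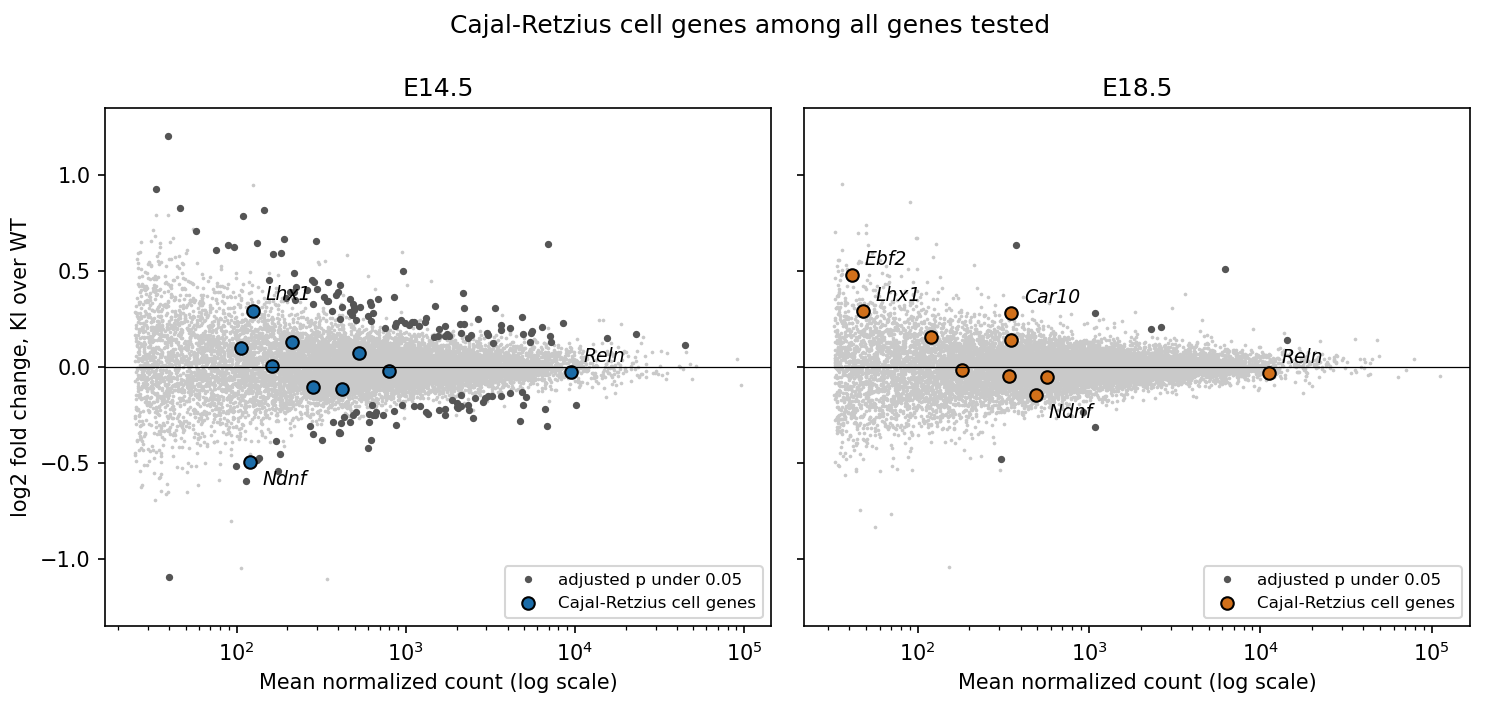
Log2 fold change of KI over WT (y axis) against mean normalized count (x axis, log scale) for every gene tested, E14.5 on the left and E18.5 on the right; dark points are genes with an adjusted p under 0.05 and large coloured points the Cajal-Retzius cell genes. Ndnf at E14.5 is the coloured point that is called, at −0.49, while Reln lies near 0 at high counts in both panels.

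No member was called for a difference between the stages in the effect of KI. The test of that difference called 0 of the 13106 genes (0% called), and 1 of the 10 members, Ndnf, had an unadjusted p under 0.05, against 4.52% of all genes. The widest interval was that of Ebf2, from −0.17 to 0.93, and the narrowest that of Reln, from −0.13 to 0.12.

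The level of the 10 genes in the forebrain moved apart between the stages by role, a split of the members that was made after their values were seen. Because the tables were normalized separately, levels were set side by side as shares in ppm of the summed mean normalized counts of each table, with no test. All 6 transcription factors (Trp73, Lhx1, Lhx5, Ebf2, Ebf3 and Nhlh2) took a smaller share at E18.5, and none of the other 4 genes did, beside 52.3% of all genes with a smaller share and a median ratio of 0.982. Lhx1 went from 6.66 to 2.36 ppm, a ratio of 0.355, and Ebf2 from 5.67 to 2.02, a ratio of 0.356. Ebf3 and Nhlh2 had ratios of 0.399 and 0.405, Lhx5 of 0.523 and Trp73 of 0.594. All 6 ratios lay within the lowest 8.39% of genes. Such a fall was not limited to these 6, since 7 of the 8 transcription factors among their paralogs also took a smaller share at E18.5, with ratios of 0.0719 for Nhlh1, 0.361 for Lhx9 and 0.419 for Lhx2, and Emx1 had 0.374. Reln went from 504 to 551 ppm (ratio 1.09), Calb2 from 15.2 to 28.1 (1.85), Car10 from 8.61 to 17.4 (2.02) and Ndnf from 6.37 to 24.1 (3.78). A rise was not limited to these 4 either. The paralogs Calb1, Car11 and Car8 had ratios of 2.17, 3.08 and 4.35, the last above that of Ndnf. Ndnf lay below all members but Ebf2 at E14.5 and below only Reln and Calb2 at E18.5, and 98.4% of genes had a smaller ratio. The gene called lower in KI at E14.5 was thus the member with the highest ratio of levels between the stages. Car10 and Calb2, which had the next highest ratios, stood at log2 fold changes of 0.00 and −0.10 at E14.5, not called. A link between the ratio and the change in KI was not tested.

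**Figure D3:**
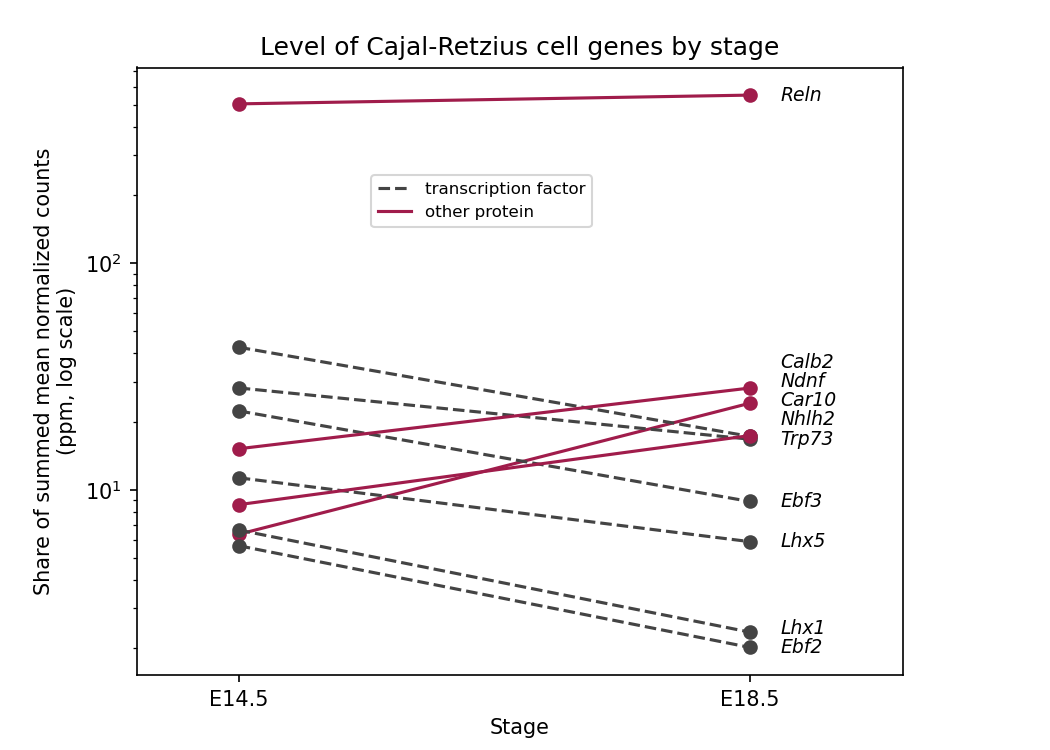
Share of the summed mean normalized counts (y axis, ppm, log scale) of each Cajal-Retzius cell gene at E14.5 and E18.5, as deposited means over both genotypes; dashed grey lines are transcription factors and solid red lines the other proteins. The 6 dashed lines descend and the 4 solid lines ascend, Reln by the least (504 to 551) and Ndnf by the most (6.37 to 24.1).

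The spread between libraries, read from the SE, also differed between the stages. The SE at E18.5 was at least 1.5 times that at E14.5 for 7 of the 10 genes, Reln and the 6 transcription factors, where 6.34% of all genes tested at both stages reached that ratio and the median ratio was 1.03. Since a lower mean raises the SE by counting error alone, the coefficient of variation (CV) between libraries that remains after Poisson counting error was derived from the SE, the mean normalized count and 5 libraries per group. For Reln, whose counts are high at both stages, this derived CV was 3.16% at E14.5 and 5.84% at E18.5, and for Trp73 5.74% and 11.3%. It was 6.88% and 14.2% for Ebf3, 9.41% and 20.9% for Lhx1, 8.97% and 14.9% for Lhx5, 12.3% and 21.6% for Ebf2, and 5.44% and 9.45% for Nhlh2. The median over all genes tested was 6.29% at E14.5 and 6.87% at E18.5. Ndnf went the other way, from 11.8% to 6.71%, and Car10 from 9.96% to 8.85%, while Calb2 went from 7.67% to 9.52%. The derived CV rests on dispersions that DESeq2 shrinks towards a trend over the mean, so it is a description of the fit.

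**Figure D4:**
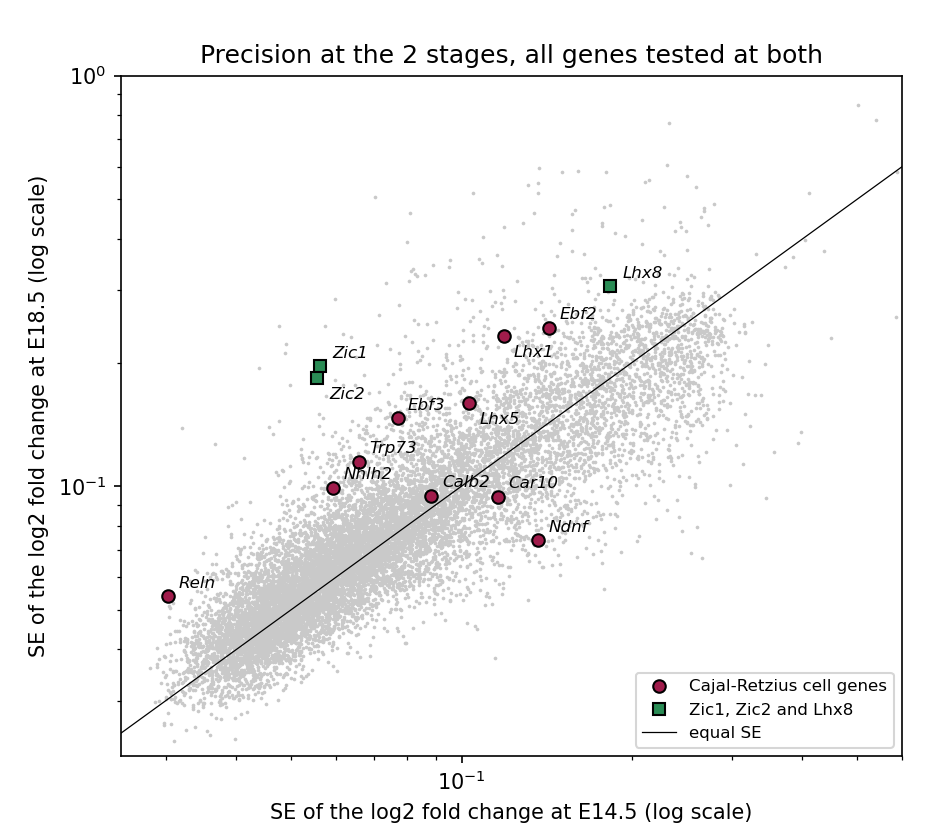
SE of the log2 fold change at E14.5 (x axis) and E18.5 (y axis), both log scales, for all genes tested at both stages (grey), the Cajal-Retzius cell genes (red circles) and Zic1, Zic2 and Lhx8 (green squares); the line marks equal SE. Reln and the 6 transcription factors lie above the line, at 1.55 to 1.96 times the SE of E14.5, and Ndnf lies below it at 0.540 times.

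Further genes linked to these cells gave no call. Of 9 others, among them the transcription factor Tbr1 and the calcium channel subunit Cacna2d2, none was called at either stage, with 7 of 9 above 0 at E14.5 (median 0.11) and 7 of 9 at E18.5 (median 0.06). Over all genes, 50.2% lay below 0 at E14.5 and 51.2% at E18.5. At an unadjusted p under 0.05, 4 of the 9 passed at E14.5, 3 higher and 1 lower, against 11.5% of all genes. At E18.5, 2 of the 9 passed, against 5.96% of all genes. Tbr1, which is also a gene of deep-layer neurons, stood at −0.12 (SE 0.045, DESeq2 adjusted p = 0.209) at E14.5, with −0.02 (SE 0.037) at E18.5 by the authors' deposited table. Cacna2d2 stood at 0.12 (SE 0.060, DESeq2 adjusted p = 0.427) and 0.16 (SE 0.061, DESeq2 adjusted p = 0.636) by the authors' deposited table.

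Genes of the places where Cajal-Retzius cells are born were scarce. Of 20 genes of the cortical hem and other sources, 14 had an adjusted p at the earlier stage and 12 at the later, and none was called. The hem signal Wnt3a had a mean normalized count of 39.8 at E14.5 and a log2 fold change of −0.02 (SE 0.240) by the authors' deposited table, and at E18.5 it had no adjusted p. Wnt2b stood at 0.05 (SE 0.143) and −0.24 (SE 0.174) by the authors' deposited table. The list's median was 0.04 at E14.5, with 8 of 14 above 0, and −0.04 at E18.5, with 4 of 12 above 0.

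The meninges hold Cajal-Retzius cells at the surface through the chemokine Cxcl12 and its receptor Cxcr4, and pieces of them can come with the tissue. All 5 meningeal genes tested at E14.5 were above 0 (median 0.28) and none was called. Cxcl12 stood at 0.10 (SE 0.071) and Foxc1, a meningeal transcription factor, at 0.12 (SE 0.187) by the authors' deposited table. The other 3, named after their values were seen, are matrix genes of fibroblasts and lay higher. Col1a2 stood at 0.61 (SE 0.207, unadjusted p = 0.00315, DESeq2 adjusted p = 0.118), Dcn at 0.41 (SE 0.256) and Col3a1 at 0.28 (SE 0.148) by the authors' deposited table. At E18.5 only Cxcl12 and Foxc1 of the 8 genes had an adjusted p, at 0.23 (SE 0.221) and −0.09 (SE 0.414) by the authors' deposited table. The 6 without a p had mean normalized counts from 31.2 to 490 and derived coefficients of variation between libraries from 126% to 255%. Of the choroid plexus genes 1 of 6 was tested at each stage, and the 4 without a p at E18.5 had derived coefficients of variation from 125% to 206%. Ttr, the main product of the choroid plexus, was one of them, with a mean normalized count of 5.76 at E14.5 and 2718 at E18.5 by the authors' deposited table. Subplate and mitral cell genes, which share the early cortical surface or Tbr1, gave no call either: 5 had an adjusted p at the earlier stage and 4 at the later, with Ccn2 at −0.21 (SE 0.194) and Nxph4 at −0.12 (SE 0.075) at E14.5 by the authors' deposited table. At E18.5 the mitral cell gene Cdhr1, named after its values were seen, had no p. Its mean normalized count there was 254 and its log2 fold change −1.39 (SE 0.750) by the authors' deposited table. The derived coefficient of variation between libraries was 82.0%. The part of meninges, choroid plexus, subplate and mitral cells in the members' values was not tested.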

How the data were processed

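RNA sequencing of forebrain gave 1 deposited table per stage, the authors' comparison of KI with WT over 5 and 5 libraries. Per the submitters' processing notes, the authors used build mm10 and, among other tools, DESeq2 1.26.0, featureCounts 2.0.0, HISAT2 2.1.0 and Trimmomatic 0.39. Per the file headers, the authors give a mean normalized count (a signal scaled by size factors), a log2 fold change and its SE, a Wald score, and p-values before and after adjustment. The tables hold 0 columns of per-sample values, so total counts per library are unknown here and precision rests on the deposited SE. The ChIP-seq and ATAC-seq samples were not analysed here.

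IDs were matched to RefSeq symbols in GRCm38.p6 (17192 of 17940 at E14.5, 15064 of 15449 at E18.5). A gene is called at a deposited adjusted p under 0.05; only genes with one count as tested. Intervals (95%, normal), derived WT and KI means, the derived CV and the normal test of the difference between stages (Benjamini-Hochberg) were computed with Python 3.11.15, pandas 2.3.3, NumPy 2.4.6 and SciPy 1.17.1, and the tests were checked on simulated data. The plan allowed for counts per library; the deposited test was used instead. Alternatives were other adjustments, filters, null and reference distributions and, added after seeing the data, 2 scalings of levels. Members and lists were chosen with earlier results of these data known. The lists share some genes, so their counts are not independent of each other. Named genes are all members, their paralogs, Chd8, and of each other list the called genes and the first 2 written; others are said to be chosen later. Some genes are not reported here.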

Additional observations from a re-analysis of the deposited data

How the results depend on the processing

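The count of called members at E14.5, 1 with the deposited adjustment, became 0 with the Benjamini-Yekutieli adjustment, 0 with the empirical null (scale of the Wald statistic 1.22) and 0 with a t distribution of 8 degrees of freedom, where all genes gave 56, 31 and 1 calls in place of 162; Ndnf kept its call without a filter on low means (adjusted p = 0.0421) and among genes whose mean normalized count reached 100 (adjusted p = 0.0287). Over the other 19 pairs of member and stage, all 93 recomputed adjusted p stayed above 0.05, the lowest at 0.223. At E18.5 the members gave 0 calls under every alternative, while all genes gave 4 to 19 apart from the t distribution, which gave 1. The stage difference gave 0 calls among all genes and members under both alternatives. The members' median at E18.5, 0.06, was −0.02 in the 8 members with a mean of at least 100, a change of sign, 0.07 after centring and 0.02 as a weighted mean; at E14.5 it ranged from −0.02 to −0.01. The number of members with a lower level at E18.5 was 6 under each scaling. No paired analysis was possible because the deposited columns carry no values per library, and for the same reason no library could be left out. Depth per library is unknown here; the widest intervals of KI against WT were those of Ebf2 and Lhx1 at E18.5 (SE 0.243 and 0.232), at 41.1 and 48.0 in mean normalized count.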

Other observations

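Zic1 and Zic2, zinc-finger genes of the septum and hem from which many Cajal-Retzius cells come, had a wider spread at E18.5 than at E14.5 and are named, like the other genes here, after their values were seen. By the authors' deposited table the SE of Zic1 was 0.056 at E14.5 and 0.196 at E18.5, at mean normalized counts of 3413 and 1898, and that of Zic2 was 0.055 and 0.183. The derived CV between libraries went from 5.92% to 21.3% for Zic1 and from 5.24% to 19.7% for Zic2, ratios of 3.60 and 3.76 beside a median ratio of 1.05 over all genes. Of the 4380 genes with a mean of at least 1000 at both stages, 7 had an SE ratio as large as that of Zic1 or larger, Zic1 included. Other listed genes had larger ratios: Eomes, a factor of intermediate progenitors, went from 3.19% to 14.9% (ratio 4.65), Bmp7, a hem signal, from 13.3% to 63.8% (4.79) and Otx2, a choroid plexus factor, from 12.2% to 58.4% (4.79). Lhx8, a gene of the ventral septum and basal forebrain, went from 19.5% to 33.1%. Cxcl12 went from 6.30% to 24.0%. The log2 fold changes of Zic1 were 0.17 (SE 0.056, DESeq2 adjusted p = 0.104) at E14.5, with 0.17 (SE 0.196) at E18.5 by the authors' deposited table. The hem signal Rspo2 went the other way, from 31.2% to 9.39%. The median derived CV over the tested genes of the hem and other sources was 9.66% at E14.5 and 9.39% at E18.5. These medians rest on 14 and 12 genes that differ in part. Of the genes of that list tested at both stages, all but Rspo2 had a larger derived CV at E18.5. Apart from Rspo2, the ratios ran from 1.05 for Wnt5a to 4.79 for Bmp7. Over all genes tested at both stages, 59.1% had a larger derived CV at E18.5. A wider spread at E18.5 thus held for the named genes and for that list, Rspo2 apart, and the cause was not tested.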
